A study of Mus musculus with 77 samples.

Results

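Heterotrimeric G protein subunits and regulators of G protein signaling (Rgs) were examined in mouse pancreatic ductal organoids expressing Neurogenin3 (Ngn3). The members were all genes of the count table whose symbols belong to the Gα genes (Gna11 to Gna15, Gnai1 to Gnai3, Gnao1, Gnaq, Gnas, Gnal, Gnat1 to Gnat3 and Gnaz), the Gβ genes Gnb1 to Gnb5, and the Gγ and Rgs genes named Gng or Rgs followed by digits. This gave 52 of 46078 genes: 16 Gna, 5 Gnb, 10 Gng and 21 Rgs genes. The organoids, 3-dimensional cultures of ductal cells of the C57BL/6 strain, were infected with vectors carrying GFP only, GFP with wild-type (WT) Ngn3, or GFP with 6S-A Ngn3, a mutant whose serine-proline phosphorylation sites were changed to alanine-proline. GFP-positive cells were sorted after 2 days of induction from all 3 cultures, and after 8 days from the WT and the 6S-A Ngn3 cultures. The controls at 8 days were cells without the reporter color ("no-color") from the WT and from the 6S-A cultures, and no GFP only sample at 8 days was among those analysed here. All groups therefore came from infected cultures, and the level of the introduced protein was set by the vector rather than by the endogenous gene. Each library came from a pool of 50 cells, and each of the 7 groups had 3 biological replicates. Cells were at passage 2, except replicate 3 of each group at 8 days, which was at passage 5.

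G proteins pass signals from receptors that span the cell membrane 7-fold to enzymes and ion channels inside the cell. The Gα subunit binds GTP when a receptor is activated and separates from the paired Gβ and Gγ subunits, and both parts then act on targets. Gs proteins stimulate adenylyl cyclase, Gi/o proteins inhibit it, and Gq proteins activate phospholipase C-β. Rgs proteins speed up the hydrolysis of GTP on Gα and so end the signal. In islet cells, these routes carry hormone and neurotransmitter signals that adjust secretion.

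The replicates at 2 days held between 17757303 and 26627347 reads on genes, and those at 8 days between 2397470 and 17919627, so that low-level members were measured less precisely at 8 days. Levels are given as CPM, the reads of a gene per 1000000 reads on genes after scaling across all replicates. Neurog3, which encodes Ngn3, matched the labels: it was at or below 0.0732 CPM in the GFP only replicates, between 89.6 and 206 CPM with WT and between 101 and 198 CPM with 6S-A at 2 days. At 8 days it was between 6.86 and 46.1 CPM with either protein and at most 0.989 CPM in the no-color cells. A list of 10 ductal markers summed to between 13422 and 15342 CPM in GFP only cells and to between 7720 and 9517 CPM with either protein at 2 days, with no marker at 0. Spp1 was the largest part of this sum (8812 CPM on average in GFP only cells, 4572 with WT and 3827 with 6S-A), and 6 of the 10 markers fell with each protein, while Krt7 (1320, 1282 and 1217 CPM) and Sox9 (370, 380 and 353 CPM) differed little in mean and Cdh1 was at a higher mean with both proteins (725, 1073 and 1077 CPM). A list of 10 endocrine markers summed to at most 2.43 CPM in GFP only cells and to between 203 and 1093 CPM with either protein. A change in the proportion of cells of a type and a change in RNA per cell cannot be told apart in pools.

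Single replicates stood apart at 8 days. With WT Ngn3, the sums of the 10 endocrine markers ranged from 28.3 to 1875 CPM over the replicates at that time, and Chga, which encodes a protein of secretory granules, was at 281, 239 and 0.791 CPM in replicates 1, 2 and 3. Replicate 3 of the no-color cells from the WT culture was the shallowest of all and held 451 CPM of Gng5, where the other 20 replicates held 78.2 CPM or less. With 6S-A replicate 1 stood apart, with Chga at 674 CPM against 24.3 and 11.1 CPM, and the ductal gene Sox9 at 49.9 CPM against 206 and 162 CPM. Sox9 was lowest in replicate 1 of WT as well, at 70.7 CPM against 257 and 274 CPM. Values for passage 2 alone, which keep replicate 1 of both proteins, are also given for Gng4, Gnao1 and Rgs16 at 8 days.

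The gene with the largest fitted rise of all members was Gng4, and its promoter is shown because Ngn3 is a basic helix-loop-helix protein, a class that binds the E-box sequence CANNTG. Promoters, windows of 300 bases that span a transcription start and lie mostly before it, were taken from RefSeq on GRCm38.p6, and 39 of the 52 members matched. E-boxes are in capitals. The first Gng4 start, on the plus strand at chr13:13783809-13784108, has 3 of them:
Gng4: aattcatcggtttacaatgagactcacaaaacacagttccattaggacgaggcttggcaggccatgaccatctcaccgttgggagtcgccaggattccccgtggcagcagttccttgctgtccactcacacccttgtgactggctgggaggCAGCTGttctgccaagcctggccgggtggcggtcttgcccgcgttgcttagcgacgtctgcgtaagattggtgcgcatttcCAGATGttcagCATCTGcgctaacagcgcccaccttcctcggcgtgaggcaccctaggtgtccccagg
The others that rose with both proteins at 2 days, Gng2 (minus strand, chr14:19976644-19976943) and Gnao1 (plus strand, chr8:93810588-93810887), have 1 each:
Gng2: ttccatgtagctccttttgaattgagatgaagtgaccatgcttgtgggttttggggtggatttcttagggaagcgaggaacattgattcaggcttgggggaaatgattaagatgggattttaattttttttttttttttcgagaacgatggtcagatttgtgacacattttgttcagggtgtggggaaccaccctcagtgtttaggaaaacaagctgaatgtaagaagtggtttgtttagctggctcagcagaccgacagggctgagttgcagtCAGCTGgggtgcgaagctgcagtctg
Gnao1: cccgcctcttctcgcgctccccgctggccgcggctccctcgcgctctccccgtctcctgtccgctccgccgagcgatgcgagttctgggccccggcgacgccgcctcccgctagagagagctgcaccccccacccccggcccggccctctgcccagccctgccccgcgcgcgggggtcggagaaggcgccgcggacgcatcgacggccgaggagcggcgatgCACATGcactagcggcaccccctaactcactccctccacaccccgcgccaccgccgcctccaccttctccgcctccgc
In the Gng4 promoter, CAGATG begins at position -18 from the start. The same letters read on the other strand, CATCTG, begin at -7, and CAGCTG begins at -99. A second Gng4 start (chr13:13784057-13784356) overlaps the first window and has 2 further E-boxes, 1 of them CAGGTG and the other one reading CACTTG. The general pattern CANNTG, which reads the same on both strands and covers both narrower patterns below, occurred in 72.3% of all 32851 promoters and in 37 of the 52 promoters of the 39 matched members (71.2%). The form CAGATG, searched on both strands, occurred in 17.2% of all promoters and in 10 of those of the members (19.2%). The form CATATG occurred in 3.91% of all promoters and in 3 of those of the members (5.77%). Members that fell with both proteins at 2 days had E-boxes as well: Rgs4 had 5, Rgs2 had 1 and Rgs16 had 0. Gng12, which also fell, had 1 in its first window and 0 in the other. Such matches are common, were not confined to members that rose and describe letters only. Binding was not measured.

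At 2 days, WT Ngn3 cells differed from GFP only cells in 8 of 45 tested members and 6S-A Ngn3 cells in 13. With WT Ngn3, 3 members rose (6.67% of those tested, against 6.56% of all genes tested) and 5 fell (11.1%, against 5.23%). With 6S-A Ngn3, 7 rose (15.6%, against 9.43%) and 6 fell (13.3%, against 8.62%). Gng4, Gng2 and Gnao1 rose with both proteins, and Rgs2, Rgs16, Rgs4, Rgs11 and Gng12 fell with both. Gnaz, Gnaq, Rgs17 and Rgs3 passed the threshold for a rise, and Gnai1 for a fall, with 6S-A only, but none of these differed between the proteins by the test of that difference. The median log2 fold change of tested members was -0.06 with WT and -0.14 with 6S-A, where the medians of all genes were 0.01 and 0.02. The p-values are from edgeR's quasi-likelihood test, adjusted over all genes tested, with a threshold of 0.05, and n = 3 per group throughout. Both proteins were compared with the same GFP only samples, so their values are set side by side without a test of their likeness.

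**Figure D1:**
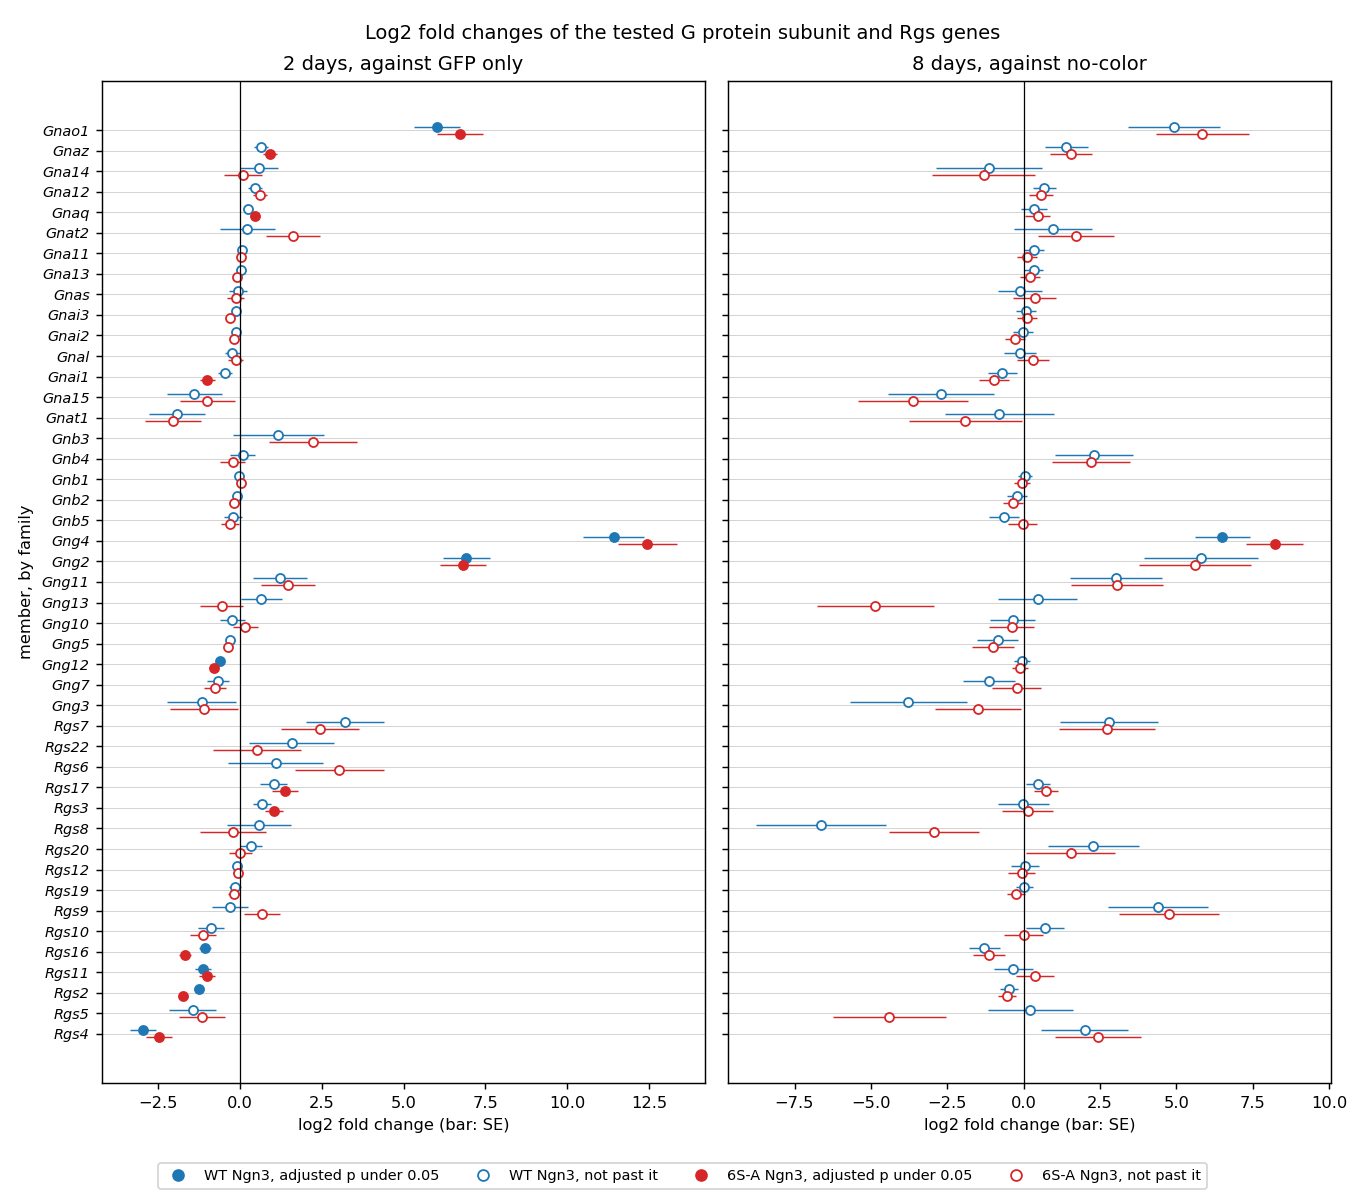
Log2 fold changes with their SE for the tested members, ordered by family (Gna, Gnb, Gng, Rgs), for WT (blue) and 6S-A Ngn3 (red), against GFP only (2 days) or no-color cells (8 days). Filled points passed an adjusted p of 0.05: 8 with WT and 13 with 6S-A on the earlier day, and Gng4 alone with each protein on the later.

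Among the Gγ genes, Gng4 (ENSMUSG00000021303, chr13:13784059-13827896 in GENCODE M21, GRCm38), which encodes a Gγ subunit best known from the nervous system, was at 0 reads in all 3 GFP only replicates. With WT Ngn3 it was at 15.1, 8.01 and 22.2 CPM in replicates 1, 2 and 3, and with 6S-A Ngn3 at 23.2, 23.4 and 46.3 CPM. All Ngn3 replicates thus lay above all GFP only replicates. Against a floor of 3 reads per GFP only replicate (0.121 CPM), Gng4 was at least 125-fold higher with WT (adjusted p = 5.26e-05) and at least 255-fold higher with 6S-A (adjusted p = 1.29e-05). The 6S-A replicates all lay above the WT replicates, with a mean of 31.0 ± 13.3 CPM against 15.1 ± 7.11 CPM (SD). This difference, 1.02 ± 0.39 on the log2 scale (SE, 95% interval 0.26 to 1.79), did not pass the threshold over all genes (adjusted p = 0.816, unadjusted p = 0.0265 by edgeR's test). With the replicate number as a block it was 1.05 and passed (adjusted p = 0.0334, edgeR).

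In single pools, Gng4 was detected in none of 18 GFP only pools and in all 18 WT and all 18 6S-A pools at 2 days. Pools with WT spanned 0.574 to 56.4 CPM with a median of 11.6, and pools with 6S-A 8.76 to 85.2 CPM with a median of 31.7. The ranges overlapped, and within a replicate the pools also differed widely: in replicate 1 of WT they spanned 1.65 to 37.9 CPM. In replicates 2 and 3 at 2 days, technical repeats 2 and 3 were nearly alike (a chi-square per gene between 1.59 and 2.35, against 5.21 or more for other pairs), so they may not be separate pools. They were summed within the replicate, and n is not affected.

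**Figure D2:**
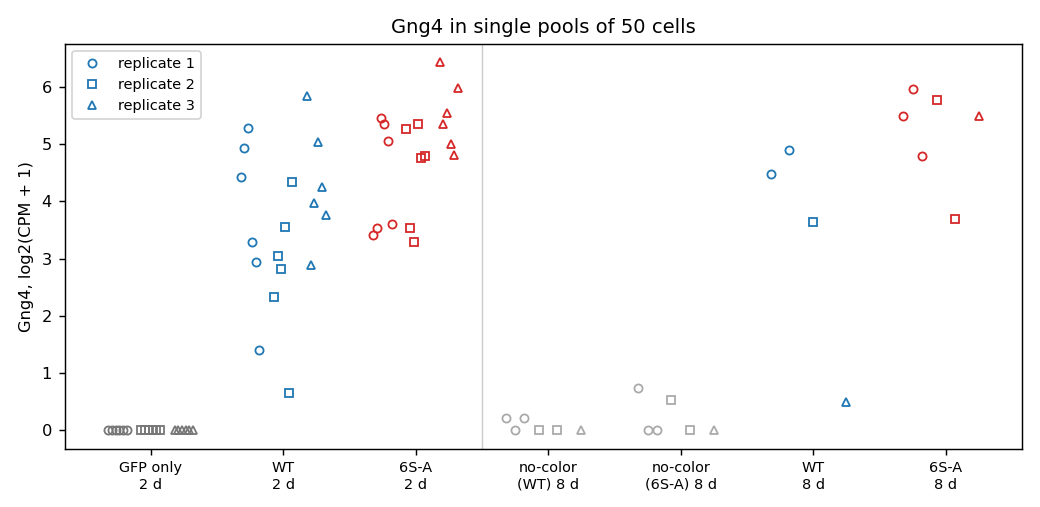
Gng4 in each retained pool of 50 cells as log2(CPM + 1), by group and by biological replicate (circle, square, triangle). All 18 GFP only pools are at 0, the 6S-A pools at 2 days span 8.76 to 85.2 CPM, and 1 pool with WT at 8 days, that of replicate 3, is at 0.403 CPM.

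Gng2, the other Gγ gene that rose, had 2 reads in all GFP only replicates together. It was at 4.25, 4.66 and 2.86 CPM with WT and at 3.35, 5.0 and 2.68 CPM with 6S-A Ngn3. All replicates of both proteins lay above the GFP only replicates, and the proteins overlapped. The ratio to GFP only was 147 with WT (adjusted p = 2.26e-05) and 138 with 6S-A (adjusted p = 1.4e-05). The counting error of the 2 control reads alone gives exact Poisson intervals of 40.6 to 1212 and of 38.1 to 1136. The difference between the proteins was -0.11 ± 0.44 on the log2 scale (95% interval -0.97 to 0.75, adjusted p = 1.0, edgeR).

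Gng12, a widely expressed Gγ gene and the highest Gγ gene per kilobase of exon in GFP only cells, fell. It was at 248, 198 and 186 CPM in GFP only cells, at 150, 140 and 120 CPM with WT and at 127, 123 and 111 CPM with 6S-A Ngn3. Neither protein's range overlapped that of GFP only. Gng12 fell by 0.61 ± 0.13 on the log2 scale with WT (adjusted p = 0.00596) and by 0.81 ± 0.13 with 6S-A (adjusted p = 0.000501, edgeR), and passed with neither from the first technical repeat alone (adjusted p = 0.24 and 0.189). The remaining tested Gγ genes (Gng3, Gng5, Gng7, Gng10, Gng11 and Gng13) did not pass the threshold. Of these, Gng5 was the most abundant, at 53.0 to 74.8 CPM in GFP only cells and 47.3 to 55.7 CPM with either protein. Gng8 had 2 reads in all libraries and was not detected above 1 read in any replicate.

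The make-up of the Gγ transcripts followed from these levels. Per kilobase of exon, Gng12 was 61.4 ± 3.43% (SD) of the summed Gγ level in GFP only cells, 50.1 ± 3.39% with WT and 43.7 ± 3.12% with 6S-A Ngn3. Gng4 was 0% in all GFP only replicates, 7.92 ± 4.0% with WT and 15.9 ± 6.82% with 6S-A. Gng5 was 32.6, 33.1 and 31.5% on average in the same order. The summed Gγ level per kilobase was 72.6 ± 10.2 CPM in GFP only cells, 57.7 ± 2.99 CPM with WT and 58.2 ± 0.18 CPM with 6S-A. These shares were not tested, since they derive from the levels above.

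**Figure D3:**
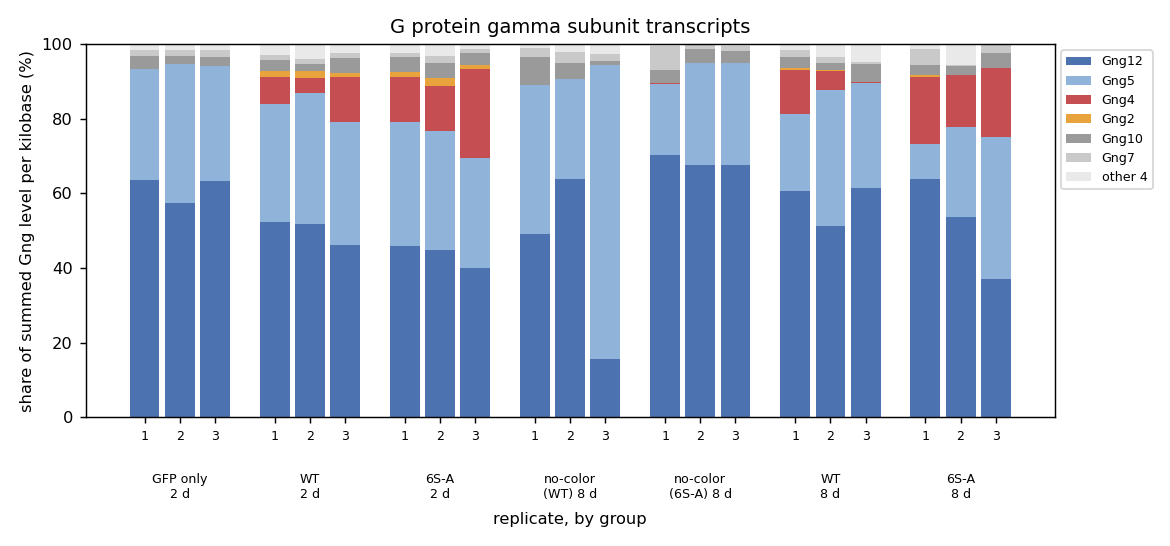
Share of each Gγ gene in the summed Gγ level per kilobase of exon (%), one bar per replicate in the 7 groups. Gng4 (red) is absent from GFP only bars, averages 7.92% with WT and 15.9% with 6S-A Ngn3 on the earlier day, and on the later is 16.8% with 6S-A but 0.17% in replicate 3 of WT; replicate 3 of the no-color cells from the WT culture differs from all other bars through Gng5.

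Among the Gα genes, Gnao1, which encodes Gαo, the most abundant Gα of neurons and also found in endocrine cells, rose with both proteins. It was at 0.0366, 0.154 and 0.0925 CPM in GFP only cells (7 reads in all), at 6.7, 2.62 and 9.81 CPM with WT and at 12, 4.84 and 14.4 CPM with 6S-A Ngn3. No Ngn3 replicate overlapped GFP only, while the proteins overlapped each other. The log2 fold change was 6.02 ± 0.69 with WT (65-fold, adjusted p = 7.96e-05) and 6.72 ± 0.7 with 6S-A (105-fold, adjusted p = 1.74e-05, edgeR). Even so, Gnao1 was a small part of the Gi/o class: per kilobase it made up 0.534 ± 0.306% of that class with WT and 0.929 ± 0.451% with 6S-A, while Gnai2 and Gnai3 together held most of it in every group.

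**Figure D4:**
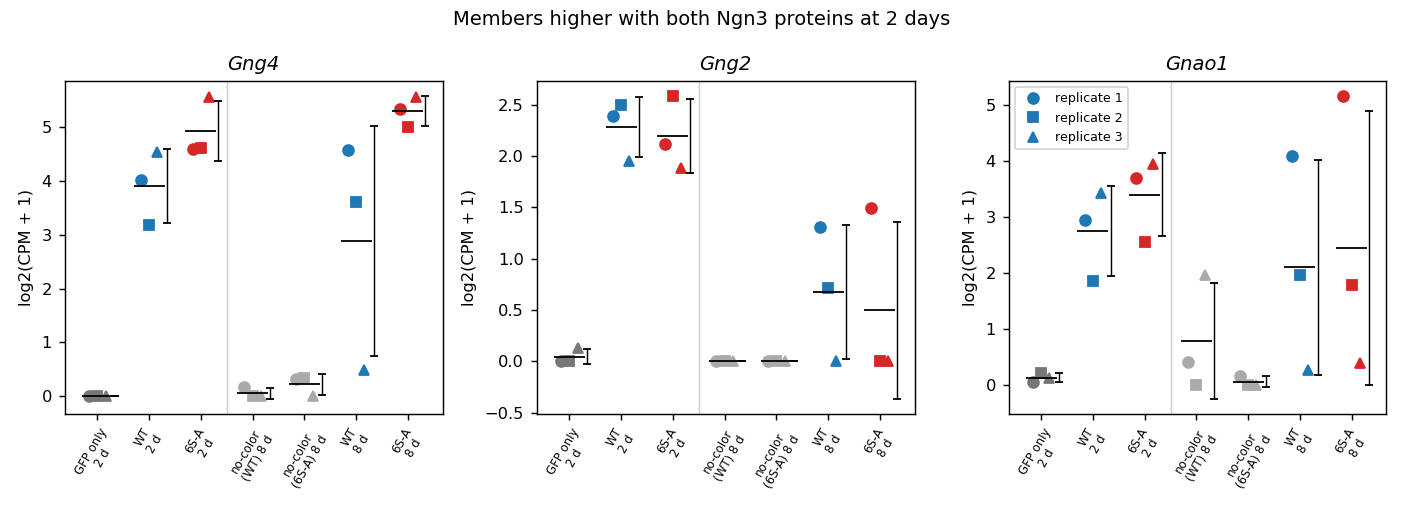
Gng4, Gng2 and Gnao1 as log2(CPM + 1) in each replicate of the 7 groups, with the mean (line) and SD (bar) of the plotted values. At 2 days all replicates with WT (blue) and 6S-A (red) lie above GFP only (dark grey); at 8 days Gng4 in the 3 replicates with 6S-A is between 31.0 and 45.9 CPM, whereas replicate 3 with WT (triangle) is at 0.395 CPM, and Gnao1 is at 0.307 CPM or less in replicate 3 of both proteins.

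The other members of the Gi/o class moved by less. Gnaz, which encodes the pertussis toxin-insensitive Gαz, was at 8.12, 6.09 and 6.85 CPM in GFP only cells, 9.16, 10 and 13.2 CPM with WT and 12.9, 12.2 and 14.6 CPM with 6S-A Ngn3. Its ranges with both proteins lay above GFP only, and it passed the threshold with 6S-A (0.91 ± 0.22, adjusted p = 0.00875) but not with WT (0.63 ± 0.22, adjusted p = 0.0842, edgeR). Gnai1, one of the adenylyl cyclase-inhibiting subunits, was at 19.3, 26.8 and 19.6 CPM in GFP only cells, 16.8, 17.5 and 12.8 CPM with WT and 13.8, 11 and 8.04 CPM with 6S-A. It lay below GFP only in every replicate of both proteins and fell by 1.0 ± 0.23 on the log2 scale with 6S-A (adjusted p = 0.00613), with a value of -0.47 ± 0.22 for WT (adjusted p = 0.227, edgeR). Gnai2 and Gnai3 had the highest listed levels per kilobase of the Gα genes in GFP only cells, although that of Gnas is uncertain (below). They were at 197 to 222 and 152 to 195 CPM there and did not pass the threshold with either protein.

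Of the Gq class, Gnaq, which couples receptors to phospholipase C-β, was at 61.7, 63.1 and 62.3 CPM in GFP only cells, 62.4, 71.9 and 83.2 CPM with WT and 74.0, 86.9 and 92.7 CPM with 6S-A Ngn3. The 6S-A replicates were all above GFP only. The rise with 6S-A was 0.44 ± 0.13 on the log2 scale (adjusted p = 0.0307, edgeR); it did not pass the threshold without any 1 of the GFP only replicates or without replicate 2 or 3 of 6S-A (adjusted p from 0.0567 to 0.138). Gna11, its close relative, was at 117 to 150 CPM in all 9 replicates at 2 days and differed by 0.05 ± 0.11 with WT and 0.04 ± 0.11 with 6S-A. Gna12 and Gna13, of the G12/13 class, did not pass the threshold with either protein (Gna12 with 6S-A 0.61 ± 0.22, adjusted p = 0.0802, edgeR). The transducins Gnat1 and Gnat2, known from photoreceptors, and Gna14 and Gna15 were at 3.26 CPM or less in every replicate at 2 days, and Gnat3 was not detected above 1 read in any replicate.

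Gnas, which encodes the stimulatory Gαs, was listed at only 5.37 to 10.1 CPM at 2 days. Its exons overlap those of Gm20721 and of the antisense Nespas over 2457 bases in GENCODE M21, and reads that could not be assigned to 1 gene were listed by HTSeq as ambiguous, so its level is uncertain. Gnal, its relative from olfactory neurons, was at 8.39 to 14.6 CPM. Neither passed the threshold with either protein. The library kit does not mark strand, so reads of a gene and of an antisense partner cannot be told apart. Gnao1 (284 bases), Gng2 (897), Gng12 (125), Rgs16 (236) and Rgs11 (138) also overlap another gene's exons, while Gng4 does not. Of the Gγ genes that did not pass the threshold, Gng10 (946 of 1314 exon bases), Gng13 (399 of 773) and Gng3 (398 of 1643) overlap another gene too. Their levels, and with them the Gγ shares given above, are therefore uncertain.

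No Gβ gene passed the threshold at 2 days. Gnb1 had the highest listed level of all members per kilobase in GFP only cells. It was at 611, 570 and 502 CPM there, at 528, 561 and 526 CPM with WT and at 548, 593 and 564 CPM with 6S-A Ngn3. The 3 groups overlapped, and the differences were -0.05 ± 0.1 with WT and 0.02 ± 0.1 with 6S-A on the log2 scale. Gnb2 was at 85.8 to 138 CPM, Gnb5, which pairs with the Rgs7 family rather than with Gγ, at 10.1 to 26.1 CPM, Gnb4 at 1.12 to 3.1 CPM and Gnb3 at 0.416 CPM or less in the 9 replicates at 2 days. By edgeR 0 of the 5 passed the threshold with either protein, against 11.8% of all genes with WT and 18.1% with 6S-A. An unadjusted p under 0.05 was found for 0 of them, against 5483 (WT) and 6880 (6S-A) of 23844 genes. DESeq2 also called 0. With only 5 genes, these counts cannot be told apart from the shares of all genes.

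Most of the falls were among the Rgs genes: 4 of 16 tested members fell with each protein (25% of them, against 5.23% of all genes with WT and 8.62% with 6S-A Ngn3), none rose with WT and 2 rose with 6S-A (9.43% of all genes). Rgs2, an inhibitor of Gq signaling, was at 289, 220 and 293 CPM in GFP only cells, 87.9, 116 and 129 CPM with WT and 79.2, 76.4 and 84.5 CPM with 6S-A. All 3 groups were separate. Rgs2 fell by 1.26 ± 0.15 on the log2 scale with WT (adjusted p = 9.24e-05) and by 1.74 ± 0.16 with 6S-A (adjusted p = 3.5e-06, edgeR). The difference between the proteins was -0.48 ± 0.15 (95% interval -0.77 to -0.19) and did not pass the threshold over all genes (adjusted p = 0.565, unadjusted p = 0.0073, edgeR).

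Rgs16, a regulator of Gi and Gq signaling known from embryonic endocrine pancreas, was the highest Rgs gene per kilobase in GFP only cells. It was at 204, 224 and 256 CPM there, at 106, 95.4 and 120 CPM with WT and at 71.8, 90.6 and 50.2 CPM with 6S-A Ngn3. As for Rgs2, the 3 groups did not overlap, with the lowest values in 6S-A. Rgs16 fell by 1.08 ± 0.18 with WT (adjusted p = 0.00131) and by 1.69 ± 0.18 with 6S-A (adjusted p = 2.35e-05) on the log2 scale. The difference between the proteins was -0.61 ± 0.18 (adjusted p = 0.515, unadjusted p = 0.00504, edgeR).

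Rgs4, which acts on Gi/o and Gq, had the largest fall. It was at 28.4, 22.5 and 15 CPM in GFP only cells, 1.67, 2.67 and 4.04 CPM with WT and 1.88, 5.52 and 4.55 CPM with 6S-A Ngn3. Both proteins lay below GFP only and overlapped each other. It fell by 2.97 ± 0.41 on the log2 scale with WT (adjusted p = 0.00031) and by 2.47 ± 0.4 with 6S-A (adjusted p = 0.000666, edgeR). From the first technical repeat alone, Rgs4 did not pass with WT (adjusted p = 0.29, edgeR). Rgs11, of the Rgs7 family that binds Gnb5, was at 21.2, 18.2 and 18.0 CPM in GFP only cells, 8.81, 9.0 and 8.13 CPM with WT and 13.4, 8.43 and 6.56 CPM with 6S-A. It fell by 1.14 ± 0.24 (adjusted p = 0.00662) and by 1.01 ± 0.24 (adjusted p = 0.00879) on the log2 scale, with no overlap with GFP only.

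**Figure D5:**
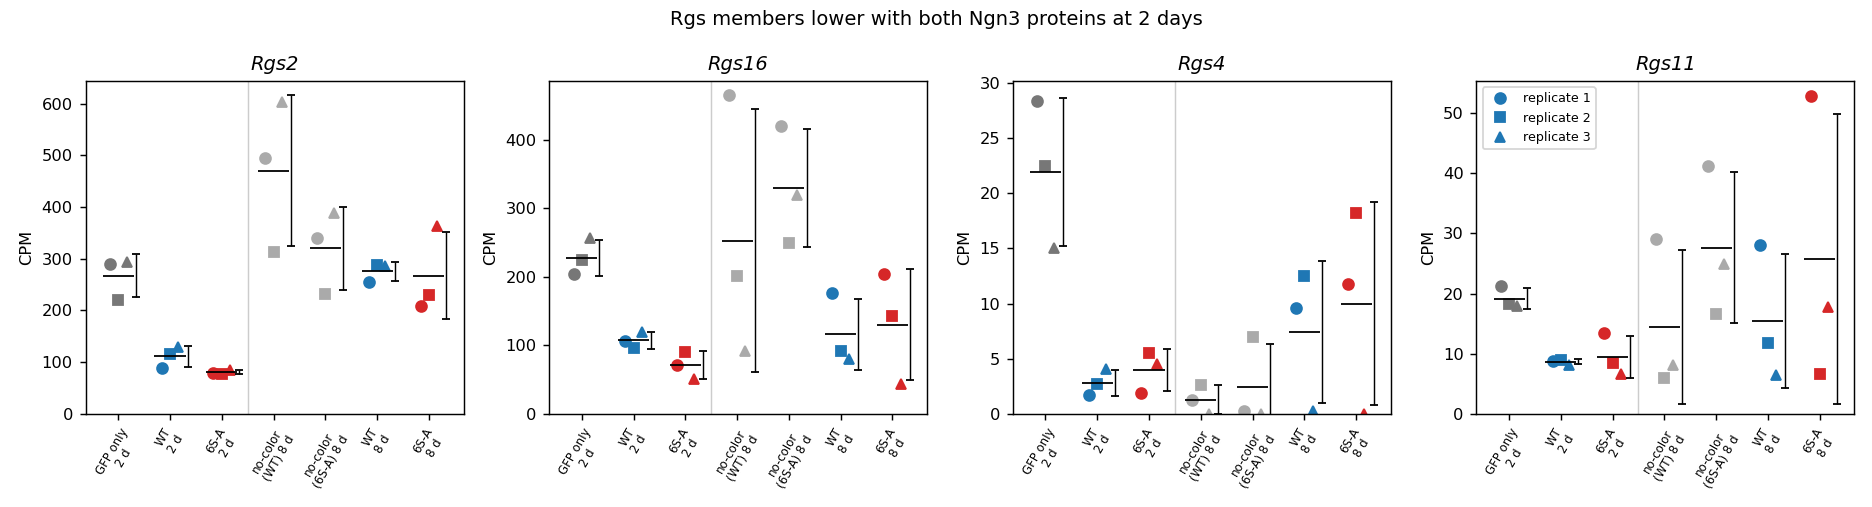
CPM of Rgs2, Rgs16, Rgs4 and Rgs11 in each replicate of the 7 groups, with mean (line) and SD (bar, drawn down to 0 at most). At 2 days all replicates with WT (blue) and 6S-A (red) lie below GFP only (dark grey) in each panel; at 8 days the groups overlap, and Rgs4 is at 0.198 CPM or less in replicate 3 of both proteins (triangles).

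A pair of Rgs genes rose with 6S-A Ngn3. Rgs17, which acts on Gi/o and Gz, was at 26.2, 26.5 and 28.9 CPM in GFP only cells, 36.1, 30.5 and 97.3 CPM with WT and 72, 53.6 and 83.0 CPM with 6S-A. Replicate 3 of WT stood far above the other 2 and within the 6S-A range. The rise with 6S-A was 1.36 ± 0.4 (adjusted p = 0.0464) on the log2 scale; the WT value was 1.02 ± 0.4 (adjusted p = 0.159, edgeR). Without any 1 of the GFP only replicates, or without replicate 1 or 3 of 6S-A, Rgs17 did not pass the threshold (adjusted p from 0.107 to 0.146). Rgs3 was at 6.88, 4.86 and 6.71 CPM in GFP only cells, 12.4, 10.3 and 6.51 CPM with WT and 15.1, 10.3 and 12.1 CPM with 6S-A. Its rise with 6S-A was 1.03 ± 0.27 (adjusted p = 0.016), with a WT value of 0.67 ± 0.27 (adjusted p = 0.144, edgeR), and it did not pass without replicate 2 of GFP only (adjusted p = 0.0766) or replicate 1 of 6S-A (adjusted p = 0.0755).

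The other Rgs genes tested at 2 days did not pass the threshold. The most abundant of them were Rgs19, at 42.0 to 66.8 CPM, and Rgs12, at 38.3 to 58.5 CPM. Rgs10 was at 5.71, 9.52 and 5.78 CPM in GFP only cells and at 2.52, 3.02 and 4.02 CPM with 6S-A Ngn3 (-1.13 ± 0.4, adjusted p = 0.0652, edgeR). Rgs5, a marker of pericytes, was at 7.54, 1.39 and 9.39 CPM in GFP only cells, and a list of 10 mesenchymal and pericyte markers summed to between 3.04 and 4.36 CPM in those cells, with Col3a1, Kcnj8 and Abcc9 at 0. Rgs1, Rgs13, Rgs18 and Rgs21 had at most 3 reads in any replicate. Per kilobase, the summed level of the 21 Rgs genes was 224 ± 12.2 CPM in GFP only cells, 119 ± 8.69 CPM with WT and 97.1 ± 6.34 CPM with 6S-A (SD), of which Rgs16 and Rgs2 made up 43.4% and 32.7% in GFP only cells.

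Between 6S-A and WT Ngn3 at 2 days, 0 of 45 members passed the threshold by edgeR and 0 by DESeq2, with 0.0126% of all genes called by edgeR. An unadjusted p under 0.05 was found for 4 members and for 1380 of 23844 genes: Gng4, higher with 6S-A, and Rgs16, Rgs2 and Gnai1, lower with 6S-A. At 8 days, 0 of 42 members passed by edgeR or by DESeq2 (0% of all genes by edgeR), with an unadjusted p under 0.05 for 415 of 19696 genes and for 2 members, Gng13 and Rgs5, both at 1.38 CPM or less in every Ngn3 replicate.

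At 8 days, 1 of 42 tested members, Gng4, passed the threshold against no-color cells with each protein. This was 2.38% of tested members, against 0.741% of all genes higher with WT and 1.37% higher with 6S-A Ngn3; none was lower, against 0.173% and 0.34% of all genes. Gng4 was at 0.131, 0 and 0 CPM in no-color cells from the WT culture and at 0.245, 0.27 and 0 CPM in those from the 6S-A culture. It was at 22.7, 11.2 and 0.395 CPM with WT and at 39.3, 31.0 and 45.9 CPM with 6S-A. The 3 replicates with 6S-A were close to each other, whereas replicate 3 with WT, from passage 5, had only 2 reads. The log2 fold change was 6.51 ± 0.91 with WT (adjusted p = 0.00162) and 8.23 ± 0.93 with 6S-A (adjusted p = 0.000145, edgeR). With passage 2 alone it was 6.77 (adjusted p = 0.0016) and 7.82 (adjusted p = 0.00109). The difference between the proteins, 1.72 ± 0.87 (adjusted p = 1, edgeR), was 1.05 with passage 2 alone.

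Gnao1 and Gng2, the other members that rose with both proteins at 2 days, differed between the replicates at 8 days. Gnao1 was at 34.6, 2.46 and 0.307 CPM in replicates 1, 2 and 3 with 6S-A and at 15.9, 2.88 and 0.198 CPM with WT, against 0 to 2.88 CPM in no-color cells. The endocrine gene Chga was at 674, 24.3 and 11.1 CPM in the same 6S-A replicates, and Neurod1, an endocrine transcription factor, at 56.2, 25.7 and 16 CPM. Gnao1 did not pass the threshold at 8 days with either protein (4.92 ± 1.5, adjusted p = 0.187 with WT; 5.86 ± 1.51, adjusted p = 0.0728 with 6S-A). With passage 2 alone, its value was 7.2 with 6S-A (adjusted p = 0.0238) and 6.23 with WT (adjusted p = 0.0516, edgeR). Without replicate 1 of the protein, which had the highest level in both groups, it was 2.61 with 6S-A (adjusted p = 0.555) and 2.75 with WT (adjusted p = 0.741); whether passage had a part in this was not tested. Gng2 had no reads in any no-color replicate and was at 1.48, 0.64 and 0 CPM with WT and 1.81, 0 and 0 CPM with 6S-A, and did not pass the threshold (adjusted p = 0.234 and 0.189, edgeR).

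The ranges of the genes that fell with both proteins at 2 days overlapped those of their controls at 8 days. Rgs2 was at 232 to 603 CPM in no-color cells, 254 to 287 CPM with WT and 208 to 363 CPM with 6S-A Ngn3 (-0.48 ± 0.29, adjusted p = 0.607, and -0.55 ± 0.29, adjusted p = 0.49, edgeR), although each of its values was below the same-numbered no-color value of its own culture. Rgs16 was at 91.5 to 465 CPM in no-color cells, 80.4 to 176 CPM with WT and 43.9 to 204 CPM with 6S-A (-1.28 ± 0.52 and -1.13 ± 0.51, adjusted p = 0.376 and 0.39). Each of the 3 Rgs16 values with either protein was below the same-numbered no-color value of its own culture, and with the replicate number as a block Rgs16 passed the threshold with WT (-1.27, adjusted p = 0.0442) and with 6S-A (-1.23, adjusted p = 0.0423, edgeR). With passage 2 alone and no block, Rgs16 did not pass (-1.33 and -0.96, adjusted p = 0.28 and 0.495), and with both it passed with WT (adjusted p = 0.00691) and not with 6S-A (adjusted p = 0.0619). Rgs4 was at 6.92 CPM or less in all 6 no-color replicates, well under the GFP only level at 2 days, and at 9.63, 12.5 and 0.198 CPM with WT and 11.8, 18.2 and 0 CPM with 6S-A. Gng12 was at 134 to 236 CPM in no-color cells and 130 to 202 CPM with either protein. Rgs11 was at 5.99 to 41.3 CPM in no-color cells and 6.52 to 52.8 CPM with either protein. By the test without the block and with the filter on low counts, none of these 5 genes passed the threshold at 8 days. That test misses many changes: in simulated counts with changes set in the WT group, it called 2% of 2-fold and 45% of 4-fold changes at 8 days. At 2 days it called 67% and 87% of them. The lack of a call at 8 days therefore does not show that an effect was lost. Without the filter on low counts, Rgs16 passed with WT and 6S-A (adjusted p = 0.0218 and 0.0474), and Rgs4 was higher with 6S-A (2.44, adjusted p = 0.0418, edgeR). Gnai1, which fell with 6S-A at 2 days, was at 12.3, 14.1 and 7.51 CPM with WT and 7.25, 13.1 and 7.99 CPM with 6S-A at 8 days, against 14.3, 17.8 and 32.8 CPM and 9.98, 18.0 and 19.7 CPM in the no-color cells of the same cultures. Each value was below its same-numbered no-color value, and the differences were -0.7 ± 0.47 and -0.97 ± 0.48 (adjusted p = 0.657 and 0.439, edgeR).

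Whether an effect differed between the time points was tested over all 7 groups. By edgeR, 0 of 45 members passed for either protein, as did 0% of all genes for WT and 0.012% for 6S-A Ngn3, and DESeq2 called 0 members. An unadjusted p under 0.05 was found for 5 members with each protein, and for 1319 (WT) and 1423 (6S-A) of 24945 genes. Rgs4 was among these with both: its effect at 8 days exceeded that at 2 days by 4.93 ± 1.79 with WT (adjusted p = 0.832) and 4.86 ± 1.77 with 6S-A (adjusted p = 0.754) on the log2 scale. With the replicate block, Rgs4 passed the threshold with both (5.68 and 5.4, adjusted p = 0.0227 and 0.0146, edgeR). For Rgs2 the values were 0.78 ± 0.35 and 1.2 ± 0.35 (adjusted p = 0.918 and 0.593, edgeR). Time and the kind of control (GFP only or no-color) cannot be told apart in this comparison.

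Genes that act next to these members changed in both directions at 2 days. Of 24 tested G protein-coupled receptors of a list of 32, 6 rose and 3 fell with WT (25% and 12.5%, against 6.56% and 5.23% of all genes) and 9 rose and 3 fell with 6S-A Ngn3 (37.5% and 12.5%, against 9.43% and 8.62%). The receptors named here had the largest fitted changes among those past the threshold. Hrh3, the histamine H3 receptor, had 3 reads in GFP only cells and was at 12.6, 12.2 and 15.6 CPM with WT and 14.3, 14.6 and 12.1 CPM with 6S-A (adjusted p = 3.69e-07 and 1.93e-07). The α2A adrenoceptor gene Adra2a, with 11 reads in GFP only cells, rose by 4.63 ± 0.6 and 4.8 ± 0.6 on the log2 scale (adjusted p = 0.000147 and 5.92e-05). The somatostatin receptor Sstr3 was at 0 reads in GFP only cells and at 0.754, 0.419 and 0.148 CPM with WT and 0.596, 1.3 and 2.77 CPM with 6S-A (adjusted p = 0.00927 and 0.000828), and Sstr1, with 1 read in GFP only cells, passed with 6S-A (adjusted p = 0.0069) and not with WT (adjusted p = 0.146), with an adjusted p of 0.817 for the difference between the proteins (edgeR). At 8 days, Hrh3 was the 1 receptor of 19 tested past the threshold with either protein (adjusted p = 0.0344 with WT and 0.00959 with 6S-A, edgeR). This was 5.26% of them, against 0.741% of all genes higher with WT and 1.37% higher with 6S-A.

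Of 17 tested effectors of a list of 20, 4 rose and 3 fell with WT (23.5% and 17.6%), and 5 rose and 4 fell with 6S-A Ngn3 (29.4% and 23.5%), against the same shares of all genes. The adenylyl cyclases Adcy5 (2.22 ± 0.52 and 2.31 ± 0.52), Adcy7 (2.31 ± 0.49 and 2.06 ± 0.48) and Adcy2 (1.47 ± 0.44 and 1.79 ± 0.44) rose with WT and 6S-A, and the phospholipase gene Plcb1 fell (-1.94 ± 0.38 and -1.88 ± 0.38), on the log2 scale. Of 18 tested regulators of a list of 20, 1 rose and 1 fell with WT (5.56% each) and 1 rose and 2 fell with 6S-A (5.56% and 11.1%), near the shares of all genes. Grk3, a kinase that binds Gβγ and desensitizes receptors, rose by 2.07 ± 0.34 with WT and 2.39 ± 0.35 with 6S-A. Arrb1, the β-arrestin 1 gene, fell by 1.93 ± 0.44 and 1.89 ± 0.44, and Rap1gap fell by 0.81 ± 0.23 with 6S-A (adjusted p = 0.024). With WT, Rap1gap had a value of -0.72 ± 0.23 (adjusted p = 0.0598), and the proteins differed by -0.09 ± 0.23 (adjusted p = 1, edgeR). The median log2 fold changes of the receptor, effector and regulator lists were 1.51, -0.19 and 0.06 with WT and 1.47, -0.01 and 0.19 with 6S-A. At 8 days, none of 14 tested effectors and 16 tested regulators passed the threshold by edgeR, against 0.914% of all genes with WT and 1.71% with 6S-A. An unadjusted p under 0.05 was found for 2 effectors and 3 regulators with WT, and for 4 and 3 with 6S-A. Over all genes it was found for 2070 (WT) and 2378 (6S-A) of 19696.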

How the data were processed

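RNA from pools of 50 sorted cells was sequenced in 77 libraries. Per the labels and the study's methods, the authors aligned reads with GSNAP to mm10 and deposited counts of reads per gene from HTSeq (0.5.3p3), without normalization. The table held 46078 genes and 92 spike-ins; 22.5% of reads were listed as not aligned, 14.4% as on no feature and 8.06% as ambiguous, and these stayed out of library sizes. With the limits given in the study's methods, a library needed less than 30% of its reads on spike-ins, more than 1000000 on genes and more than 10000 genes found, which left out 1 (849278 reads) of the libraries used here, fewer than the study states. Technical repeats were summed into 3 biological replicates per group. Nothing in the labels ties replicates to separate animals, so p-values measure the spread between these samples, which may be technical.

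A gene entered the test if 5 or more libraries at its time point had a read of it; the tool was edgeR 4.0.16 in R 4.3.3 (TMM, robust quasi-likelihood test, Benjamini-Hochberg over all genes, threshold 0.05), all groups of a time point in one fit: 23844 genes at 2 days, 19696 at 8 days and 24945 over both. The control at 8 days was the mean of both no-color groups. SE is the log2 fold change divided by the square root of F. Per-kilobase levels use exon lengths and coordinates of GENCODE M21; symbols were found for 45143 genes. Scripts were tested on simulated data. DESeq2 1.42.0, size factors of scran 1.30.0 and of DESeq2's method, other filters, library limits, single technical repeats, a replicate block, left-out replicates and, for 8 days, each culture's own control were alternatives; the restriction to passage 2 was added after seeing the data.

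The members and all gene lists (receptors, effectors and regulators of G protein signaling; ductal, endocrine, acinar, mesenchymal and pericyte, endothelial, immune and tuft markers) were chosen with earlier results of these data known. Members past the threshold against a control are given in full, up to 8 per family; of the receptor, effector and regulator lists, up to 4 genes by the larger change at 2 days are named.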

Additional observations from a re-analysis of the deposited data

Results flagged for a closer look

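One library with WT Ngn3 at 8 days (replicate 2, technical repeat 1) was left out of the comparisons in the report for its low depth of 849278 reads on genes. In it, 12 members had more than 3 reads and a level above that in any single no-color library: Gna12 69.5 CPM, Gna13 125 CPM, Gnal 25.9 CPM, Gnao1 31.8 CPM, Gnaq 64.8 CPM, Gnas 7.06 CPM, Gnaz 9.42 CPM, Gnb4 14.1 CPM, Gng4 20 CPM, Rgs12 76.5 CPM, Rgs20 5.89 CPM and Rgs5 10.6 CPM. Gng4 and Gnao1 were thus detected in it as in the retained library of the same replicate, which held 11.5 CPM of Gng4 and 2.97 CPM of Gnao1. The smallest of these values, that of Rgs20, rests on 5 reads, and none was tested. The share of all genes that met the same rule in this shallow library was not determined. The count of 12 is therefore not a result about the members. With 3 replicates per group, no group was large enough for a search for single outlying samples.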

How the results depend on the processing

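At 2 days, the number of members past the threshold was 8 with WT and 13 with 6S-A Ngn3, and 7 and 9 with the first technical repeat only, where 44 members could be tested. Gng12 (adjusted p = 0.24 and 0.189) dropped out there for both proteins, Rgs4 (0.29) for WT, and Gnaz (0.06), Gnaq (0.668) and Rgs3 (0.2) for 6S-A, while Rgs17 was added for WT. Leaving out single replicates gave 8 to 10 with WT and 10 to 14 with 6S-A. At 8 days the count was 1 with each protein and 2 and 2 with DESeq2, which added Gnao1, and 3 (WT) and 5 (6S-A) without a filter on low counts; without single replicates it was 1 to 1 with WT and 1 to 2 with 6S-A, where Gnao1 was added without replicate 3 of either protein. With passage 2 alone it was 1 and 2, and with passage 2 and the replicate block 4 and 3. Gng4 was called against no-color cells in each of 23 alternatives for both proteins (log2 fold change 5.46 to 7.77 with WT, 7.59 to 9.51 with 6S-A). Without a filter on low counts, Rgs4 was the 1 member whose effect differed between the time points, for both proteins (4.92 and 4.86). The 13 members past the threshold against a control kept their direction in every alternative recomputed for them, other named members were not followed, and other size factors, another filter (filterByExpr) and the absence of limits on libraries moved no count of members by over 1.5 times. Over all genes tested, the calls at 8 days were 180 with WT and 337 with 6S-A by edgeR (81.1% and 80.1% of them higher), 551 and 822 by DESeq2 (63.2% and 57.1% higher), 724 and 1044 without a filter, 472 and 704 with the replicate block, 49 and 115 against each culture's own no-color cells, 111 with WT from the first technical repeat, and 212 with 6S-A at passage 2. At 2 days they were 2810 and 4305, against 1216 and 1677 from the first technical repeat and 4291 with WT under the block. Between the proteins they were 3, against 101 by DESeq2, 100 without a filter, 63 from the first technical repeat and 147 under the block.

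Replicate numbers were shared between groups in the labels. Deviations of same-numbered samples correlated between 0.044 and 0.184 at 2 days and between 0.069 and 0.478 at 8 days across all genes tested, not all above 0.1, so the block was not used in the main comparisons. Over genes with a mean log2 CPM above 1 the correlations were 0.089 to 0.46 at 2 days and 0.124 to 0.599 at 8 days, where they all passed 0.1 and where replicate 3 also differs in passage. Of the pairs of a sample and another group, the best match had the sample's own number in 18 of 18 at 2 days and 34 of 36 at 8 days. With the replicate block, 10 members were called with WT (Gna12 and Gnaz added) and 17 with 6S-A (Gna12, Gnai3, Gng5 and Rgs10 added) at 2 days, 2 with each at 8 days (Gng4 and Rgs16), 1 between the proteins at 2 days (Gng4, 1.05, adjusted p = 0.0334 by edgeR) and 1 for each change of effect between time points (Rgs4, 5.68 and 5.4, adjusted p = 0.0227 and 0.0146).

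Depth limits the values at 8 days: with 2397470 reads in the shallowest replicate, 3 reads equal 1.25 CPM, above the level of many members.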

Other observations

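Markers of cell types other than duct and endocrine cells were summed per replicate. The 9 acinar markers summed to 4.59 CPM or less and the 10 mesenchymal and pericyte markers to 5.18 CPM or less in all replicates at 2 days. The 6 endothelial and 8 immune markers summed to between 3.65 and 13.7 CPM and between 5.5 and 10.1 CPM, and the 8 tuft markers, which include Dclk1, to between 21.9 and 60.7 CPM at 2 days. At 8 days, the acinar sums reached 18.4 CPM and the immune sums 17.7 CPM, and the tuft sums were 40.3 to 117 CPM in no-color cells and 26.0 to 65.5 CPM with either protein. Within these lists, at 2 days, Cela1 fell with WT Ngn3, Cd52 rose with both proteins, and Pecam1 rose and Dclk1 fell with 6S-A Ngn3. Their part in the values of the G protein and Rgs genes was not tested.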
